A study of Mus musculus with 15 samples.

Results

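The 10 genes described here encode the route by which insulin makes a muscle fibre take up glucose: the insulin receptor (Insr), its adaptors (Irs1, Irs2), the 2 subunits of phosphoinositide 3-kinase (Pik3r1, Pik3ca), the kinase Akt2, the 2 Rab GTPase-activating proteins that hold glucose transporter vesicles back (Tbc1d1, Tbc1d4) and the glucose transporters GLUT4 (Slc2a4) and GLUT1 (Slc2a1). They were picked by symbol, as the probe sets to which the platform annotation gives 1 of these symbols and no other, which took 13 of 35556 probe sets and 10 of 19938 genes. The symbols were listed with earlier results of these arrays known, and which values guided the list is not recorded. The tests below are therefore a description of these genes within a fit of the whole table, not independent support. All 10 genes passed the filter on dim probe sets that left 12056 genes, and the lowest value of any of them on any array, 6.30 on the log2 scale, lay above the filter value of 5.32.

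Total RNA came from the gastrocnemius, a calf muscle, of male C57BL/6 mice aged 12 months, and was labelled with biotin for Affymetrix arrays, 1 mouse per array. The 4 groups were Sirt3 knockout mice on calorie restriction (CR; 4 arrays), Sirt3 knockout mice on the control diet (4 arrays), wildtype mice on CR (4 arrays) and wildtype mice on the control diet (3 arrays). Sirt3 encodes a mitochondrial NAD-dependent deacetylase. How the allele was made, whether it is absent from all tissues, the degree and length of the restriction, and whether the mice were fed or fasted when tissue was taken are all unstated in the sources used here. The comparisons ask what CR did to these transcripts in each genotype, whether loss of Sirt3 altered that response, and what knockout did on either diet.

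When insulin binds its receptor, the receptor phosphorylates IRS1 and IRS2, which recruit phosphoinositide 3-kinase, a dimer of the regulatory subunit p85 (Pik3r1) and the catalytic subunit p110 alpha (Pik3ca). The lipid made by this kinase brings AKT2 to the membrane, and AKT2 phosphorylates TBC1D4 (also called AS160) and TBC1D1, which stops them from keeping Rab proteins inactive and lets GLUT4 vesicles fuse with the cell surface. TBC1D1 is also a substrate of the energy sensor AMPK, and in mouse it is the more abundant of the pair in fast glycolytic muscle while TBC1D4 is the more abundant in soleus, a slow muscle. These are changes of phosphorylation and of protein location, which an array of transcripts does not measure.

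The 250 bases before the annotated starts of Tbc1d1 and Tbc1d4 are shown because these 2 genes had the largest diet differences of the 10, in opposite directions. The sequences are from RefSeq, assembly GRCm38.p6, and run 5′ to 3′ on the gene's strand. Capitals mark matches to an E-box (CANNTG, bound by MyoD-family factors) or a GC box (GGGCGG, bound by Sp1-family factors), searched on both strands. The first is the window of the upstream Tbc1d1 start at chr5:64160010-64160259 on the plus strand, the second that of the downstream Tbc1d1 start at chr5:64230107-64230356 on the plus strand, and the third that of Tbc1d4 at chr14:101609192-101609441 on the minus strand.
Tbc1d1 upstream start: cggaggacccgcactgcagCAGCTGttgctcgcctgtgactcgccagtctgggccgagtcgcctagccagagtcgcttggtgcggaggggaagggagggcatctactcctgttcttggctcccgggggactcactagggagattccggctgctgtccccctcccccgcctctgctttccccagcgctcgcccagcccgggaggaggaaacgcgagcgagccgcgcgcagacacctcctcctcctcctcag
Tbc1d1 downstream start: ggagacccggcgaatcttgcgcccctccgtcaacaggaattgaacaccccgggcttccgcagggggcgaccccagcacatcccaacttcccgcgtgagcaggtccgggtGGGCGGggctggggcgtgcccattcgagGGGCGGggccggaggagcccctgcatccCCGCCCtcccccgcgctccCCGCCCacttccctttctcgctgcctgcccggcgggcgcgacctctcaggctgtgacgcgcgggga
Tbc1d4: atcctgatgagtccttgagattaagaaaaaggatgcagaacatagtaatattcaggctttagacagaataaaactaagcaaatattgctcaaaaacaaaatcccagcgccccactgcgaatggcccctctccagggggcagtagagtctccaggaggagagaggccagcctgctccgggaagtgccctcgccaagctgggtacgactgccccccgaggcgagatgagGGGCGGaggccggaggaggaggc

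The upstream Tbc1d1 window held 1 E-box and was 68.4% G or C, the downstream one held 4 GC boxes and was 73.6% G or C, and the Tbc1d4 window held 1 GC box and was 54.8% G or C. The median over all 32851 promoter windows of the same length was 52.4%. An E-box occurred in 66.2% of all these windows and a GC box in 32.7%. The FOXO site GTAAACA, found in 3.17% of all windows, and the palindromic MEF2 motif, found in 3.2%, had no match in the 13 windows listed for 8 of the 10 genes. A match is a stretch of letters and not a shown binding site, and which Tbc1d1 start was used in these muscles was not measured.

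The labels were checked first. Skeletal muscle transcripts dominated every array: the mean of 8 muscle markers such as Ckm and Acta1 ran from 12.39 to 12.60 on the log2 scale. Sirt3 read 4.94 to 6.19 on the 8 knockout arrays, against 6.38 to 6.68 on the 7 wildtype arrays. Transcripts of other tissues stood out on some arrays. The mean of 6 male germ cell markers was 10.27 on knockout control replicate 1 and 10.76 on wildtype control replicate 3, against a median array of 5.98. The mean of 4 pancreatic acinar markers was 12.25 on wildtype control replicate 2 (median array 5.29), and that of 5 liver markers was 10.04 on wildtype CR replicate 4 (median array 7.04). Liver markers were also at 9.08 on knockout control replicate 2 and 8.90 on wildtype control replicate 1. Values without the 2 germ cell arrays, and without these 2 together with wildtype control replicate 2 and wildtype CR replicate 4, are given where they matter. Knockout control replicate 2 and wildtype control replicate 1 were kept in both of these fits. Without the 4 arrays the wildtype control group is replicate 1 alone, so those values rest on a single mouse in that group. In whole muscle, fewer cells of a type and less RNA per cell cannot be told apart.

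CR went with lower Tbc1d1 in both genotypes, and it was the only gene of the 10 to pass the test in any of the 7 comparisons. Averaged over the genotypes, Tbc1d1 fell by 0.56 on the log2 scale (SE 0.13, limma adjusted p = 0.0497), to 0.677 of its control-diet level. This call lay at the threshold: it ended in each of the 15 fits that left out 1 array and in 6 of 11 other settings, with the direction the same in all of them. Its partner Tbc1d4 lay on the other side, at 0.55 (SE 0.14, limma adjusted p = 0.0758), and did not pass. Slc2a4, Akt2 and Pik3r1 had changes of 0.18, 0.13 and 0.34 with unadjusted p under 0.05 and adjusted p of 0.0997, 0.161 and 0.244. In this comparison 1 of 10 genes was called, against 1.07% of all 12056 genes (0.423% called lower), and 5 of 10 had an unadjusted p under 0.05, against 20.1% of all genes. The median change of the 10 was 0.14, against 0.03 over all genes tested.

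**Figure D1:**
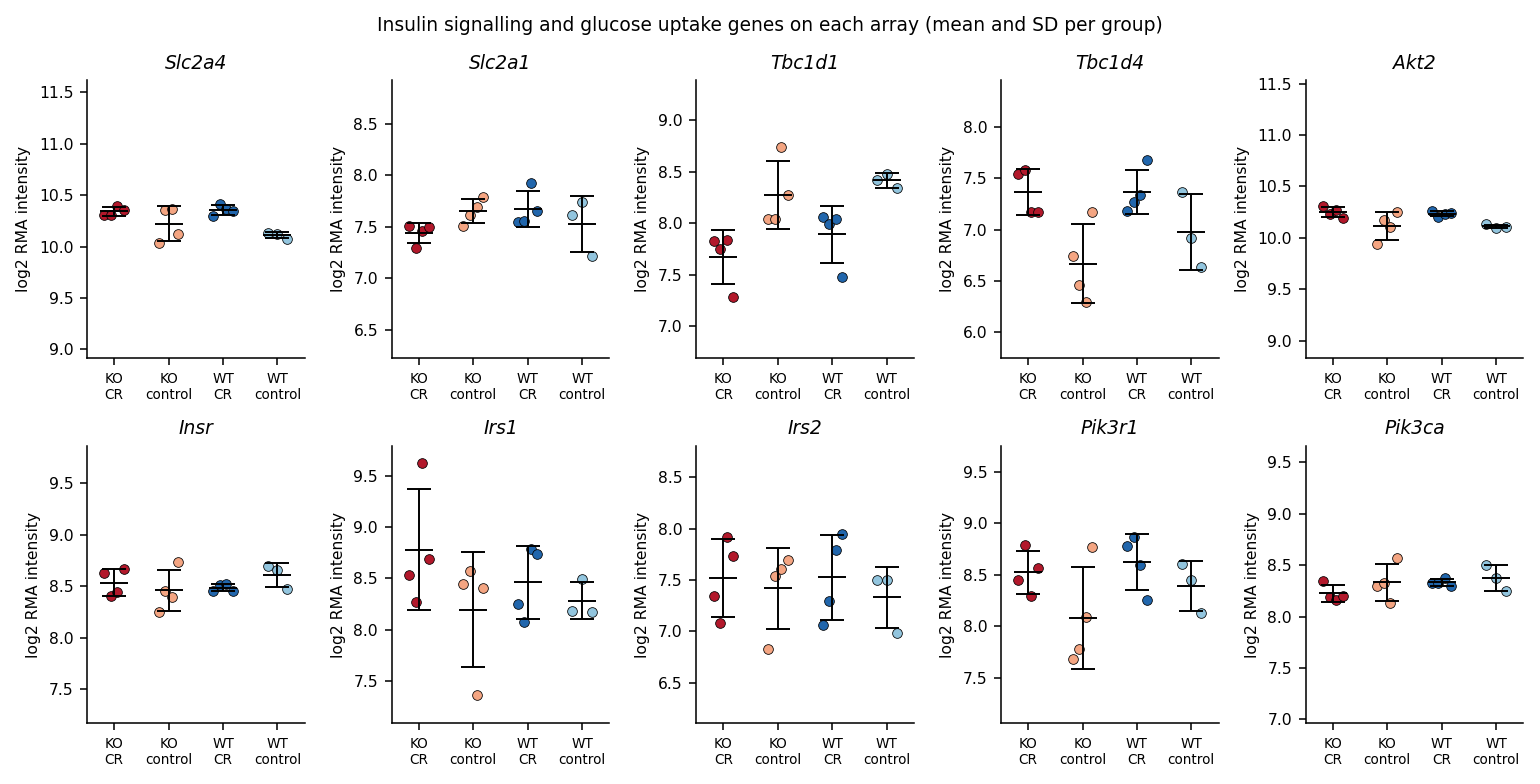
Log2 RMA intensity (vertical axis) of each of the 10 genes on each array, for knockout CR, knockout control, wildtype CR and wildtype control mice, with the mean and SD of each group. Tbc1d1 lies at 7.28 to 7.84 in knockout CR mice and 8.04 to 8.74 in knockout control mice, and at 7.47 to 8.06 in wildtype CR mice and 8.34 to 8.48 in wildtype control mice; every vertical axis spans the same number of log2 units.

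At the head of the route, the receptor showed no detectable diet difference. Insr averaged 8.51 ± 0.091 (SD, n = 8) on CR and 8.52 ± 0.18 (SD, n = 7) on the control diet, and the averaged change of -0.02 had a 95% interval from -0.17 to 0.13. Its second probe set, at a lower intensity, gave -0.03. The arrays of Insr ran from 8.41 to 8.66 in knockout CR mice, 8.25 to 8.73 in knockout control mice, 8.45 to 8.53 in wildtype CR mice and 8.48 to 8.69 in wildtype control mice, so all 4 groups overlapped.

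The adaptors varied most from mouse to mouse. Irs1, the main IRS protein of muscle glucose uptake, read 8.54, 8.27, 9.62 and 8.69 in knockout CR mice, against 8.45, 8.57, 7.36 and 8.41 in knockout control mice. In wildtype mice it read 8.25, 8.08, 8.79 and 8.74 on CR, against 8.19, 8.50 and 8.17 on the control diet. The diets overlapped in both genotypes, with the highest value of the 15 on a knockout CR array and the lowest on a knockout control array. Its averaged change was 0.38 with a 95% interval from -0.09 to 0.85 (limma adjusted p = 0.331), so neither no change nor a change as large as that of Tbc1d4 lies outside the interval. The second Irs1 probe set was below the filter, with a mean of 4.53. Irs2, whose transcript FOXO factors raise in fasted liver, ran from 7.08 to 7.92 in knockout CR mice, 6.83 to 7.70 in knockout control mice, 7.06 to 7.95 in wildtype CR mice and 6.98 to 7.50 in wildtype control mice. Its averaged change was 0.15 with an interval from -0.23 to 0.53.

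Of the phosphoinositide 3-kinase subunits, the regulatory one had the larger diet difference. Pik3r1 read 8.45, 8.79, 8.29 and 8.57 in knockout CR mice, against 7.68, 7.78, 8.09 and 8.77 in knockout control mice. In wildtype mice it read 8.78, 8.87, 8.59 and 8.26 on CR, against 8.60, 8.45 and 8.13 on the control diet. The lowest 3 of the 15 arrays were all knockout control arrays, while the remaining knockout control array lay among the CR arrays. The averaged change was 0.34 (SE 0.15, limma adjusted p = 0.244), and it was 0.20 without the 2 germ cell arrays (limma adjusted p = 0.562). Pik3ca, the catalytic subunit, stayed within 8.13 to 8.57 on all 15 arrays, with an averaged change of -0.08 and an interval from -0.21 to 0.06.

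Akt2, the AKT form most tied to glucose uptake in muscle, had a small and even diet difference. It read 10.31, 10.23, 10.27 and 10.19 in knockout CR mice, against 9.94, 10.18, 10.10 and 10.25 in knockout control mice. It read 10.26, 10.20, 10.23 and 10.24 in wildtype CR mice, against 10.13, 10.10 and 10.10 in wildtype control mice. The CR and control arrays did not overlap in wildtype mice and did overlap in knockout mice, where 1 control array lay among those on CR. The averaged change was 0.13 (SE 0.047, limma adjusted p = 0.161), or 1.09 times the control-diet level. The second Akt2 probe set gave 0.19.

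The 2 Rab GTPase-activating proteins lay on opposite sides of their control-diet levels on CR, and only Tbc1d1 passed the test, with the call lost when any 1 array was left out. Tbc1d1 read 7.83, 7.75, 7.84 and 7.28 in knockout CR mice, against 8.04, 8.04, 8.74 and 8.27 in knockout control mice. In wildtype mice it read 8.06, 7.99, 8.04 and 7.47 on CR, against 8.42, 8.48 and 8.34 on the control diet. Every CR array thus lay below every control array of its own genotype, a pattern that 0.382% of all genes tested had in both genotypes. Across genotypes the diets met, since wildtype CR replicate 1 was at 8.06 and 2 knockout control arrays were at 8.04. The change was -0.60 in knockout mice (SE 0.17, limma adjusted p = 0.223) and -0.53 in wildtype mice (SE 0.19, limma adjusted p = 0.249), neither past the threshold alone. The averaged change had a 95% interval from -0.83 to -0.29. By p, Tbc1d1 stood at rank 127 of the 129 genes called in that comparison.

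Tbc1d4 read 7.54, 7.58, 7.17 and 7.17 in knockout CR mice, against 6.74, 6.47, 6.30 and 7.17 in knockout control mice. It read 7.19, 7.27, 7.34 and 7.68 in wildtype CR mice, against 7.37, 6.92 and 6.63 in wildtype control mice. In knockout mice the diets touched at 1 identical value, shared by 2 CR arrays and 1 control array, and in wildtype mice control replicate 1 lay above 3 of the 4 CR arrays. The change was 0.70 in knockout mice (SE 0.19, limma adjusted p = 0.218) and 0.39 in wildtype mice (SE 0.21, limma adjusted p = 0.423). The averaged change of 0.55 corresponds to 1.46 times the control-diet level, with a 95% interval from 0.24 to 0.85. Without the 4 arrays that carry another tissue it was 0.31. In that fit the wildtype control group is replicate 1 alone, which had the highest Tbc1d4 of its group (7.37).

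Each array's Tbc1d4 minus Tbc1d1 difference, taken relative to its mean over the 15 arrays, puts both genes in 1 value. This measure was chosen after the values were seen and carries no test. It was positive on all 8 CR arrays, from 0.28 to 0.83 in knockout mice and from 0.06 to 1.14 in wildtype mice. It was negative on all 7 control arrays, from -1.50 to -0.16 in knockout mice and from -0.77 to -0.12 in wildtype mice. The CR array nearest to zero was wildtype CR replicate 1 and the control array nearest to zero was wildtype control replicate 1.

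**Figure D2:**
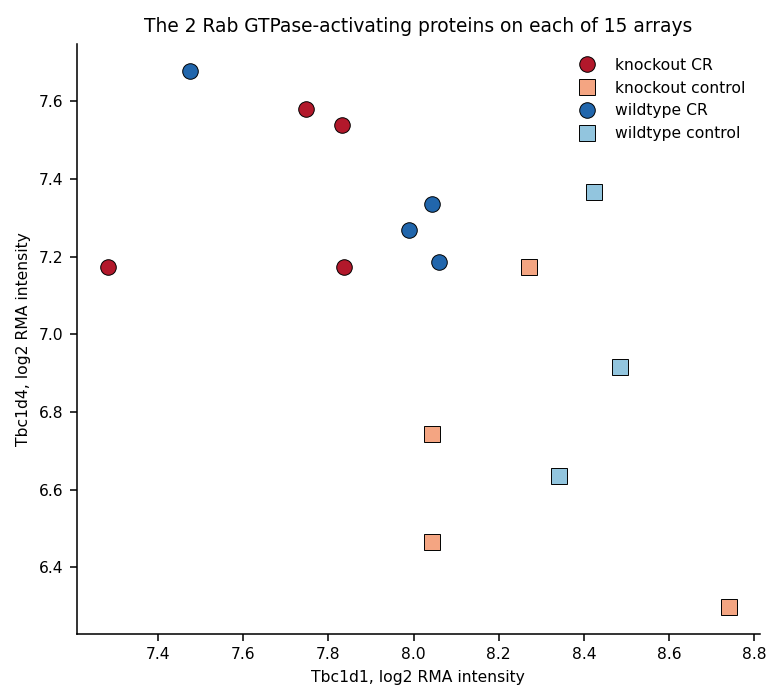
Log2 RMA intensity of Tbc1d4 (vertical axis) against that of Tbc1d1 (horizontal axis) on each of 15 arrays, with circles for CR and squares for control mice of each genotype. The 8 CR arrays lie to the left, with Tbc1d1 between 7.28 and 8.06, and the 7 control arrays to the right, with Tbc1d1 between 8.04 and 8.74. On the vertical axis the diets overlap, with Tbc1d4 between 7.17 and 7.68 on CR and between 6.30 and 7.37 on the control diet.

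Fibre type markers are given beside this pair, since TBC1D1 is the more abundant protein in fast glycolytic muscle and TBC1D4 in soleus. The mean of 8 slow fibre genes (Myh7, Myl2, Myl3, Tnnc1, Tnni1, Tnnt1, Atp2a2 and Tpm3, a list added after the data were seen) ran from 9.32 to 9.91 in knockout CR mice, 9.23 to 10.22 in knockout control mice, 8.77 to 10.85 in wildtype CR mice and 9.48 to 10.63 in wildtype control mice. None of the 8 was called in the averaged comparison, against 1.07% of all genes (limma, 0 with unadjusted p under 0.05, against 20.1%). Their median change was -0.20. The median was -0.03 in knockout mice, with 6 of 8 lower and 2 higher, and -0.36 in wildtype mice, with all 8 lower. The larger difference of the slow genes was in wildtype mice, and the estimates for Tbc1d1 and Tbc1d4 were larger in knockout mice. None of these differences between the genotypes passed the test. The arrays at the ends of the 2 ranges were as follows. Wildtype CR replicate 4, which carried liver transcripts, had the lowest slow mean (8.77) with Tbc1d1 at 7.47. Knockout control replicate 3 had the highest Tbc1d1 (8.74) with a slow mean of 9.40. Knockout CR replicate 4 had the lowest Tbc1d1 of all (7.28) with a slow mean of 9.76, above the median array at 9.62, and wildtype CR replicate 3 had the highest slow mean (10.85) with Tbc1d1 at 8.04. Of the 8 muscle markers, 2 that belong to fast fibres, named after their values were seen, were called higher on CR averaged over genotypes. Over all genes that comparison called 1.07% in either direction. Of all 8 markers, 6 were higher and 2 lower in that comparison, from -0.26 to 0.38. In wildtype mice 7 were higher and 1 lower, which was Myh2, also a fast fibre gene, at -0.22. Mylpf, a fast myosin light chain, was at 0.38 (SE 0.058, limma adjusted p = 0.0127). It kept its call in 15 of 15 fits that left out 1 array and in 10 of 11 other settings. The exception left out the 4 arrays that carry another tissue, with wildtype control replicate 1 alone in its group. Pvalb, the calcium buffer parvalbumin, was at 0.15 (SE 0.033, limma adjusted p = 0.0484), and lost its call in 15 of 15 such fits. The part of fibre type in the differences of Tbc1d1 and Tbc1d4 was not tested.

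At the end of the route, the averaged diet change of GLUT4 had an interval above zero and that of GLUT1 did not, and neither passed the test over all genes. Slc2a4, the insulin-responsive transporter of muscle and fat, read 10.31, 10.31, 10.39 and 10.36 in knockout CR mice, against 10.03, 10.36, 10.37 and 10.12 in knockout control mice. It read 10.30, 10.41, 10.37 and 10.35 in wildtype CR mice, against 10.13, 10.13 and 10.08 in wildtype control mice. The wildtype diets did not overlap, while 2 knockout control arrays were as high as those on CR. The change was 0.12 in knockout mice and 0.25 in wildtype mice (SE 0.078, limma adjusted p = 0.208). The averaged change of 0.18 (SE 0.053) had a 95% interval from 0.07 to 0.30, or 1.05 to 1.23 times the control-diet level.

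Slc2a1, the transporter of basal uptake that is also abundant in endothelium and red blood cells, read 7.51, 7.30, 7.46 and 7.50 in knockout CR mice, against 7.51, 7.62, 7.69 and 7.79 in knockout control mice. It read 7.55, 7.56, 7.92 and 7.65 in wildtype CR mice, against 7.62, 7.74 and 7.22 in wildtype control mice. Its change was -0.21 in knockout mice and 0.15 in wildtype mice, with an average of -0.03 and an interval from -0.21 to 0.15. The mean of 8 endothelial markers stayed within 7.35 to 7.71 on all arrays. The mean of the 2 erythroid markers with a probe set of their own, of 7 listed, ran from 6.16 to 6.24 in knockout CR mice, 5.70 to 5.99 in knockout control mice, 5.82 to 6.22 in wildtype CR mice and 5.39 to 5.83 in wildtype control mice.

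Fat cells also express Slc2a4, Insr, Irs1 and Akt2, so their markers are given beside these genes. Of 7 adipocyte markers 6 had a probe set of their own (Adipoq, Plin1, Fabp4, Cidec, Lep and Pparg), all above the filter. Their mean ran from 7.12 to 8.10 in knockout CR mice, 6.95 to 7.60 in knockout control mice, 6.75 to 8.07 in wildtype CR mice and 6.79 to 7.28 in wildtype control mice. In the averaged diet comparison 5 of 6 were higher on CR, with a median change of 0.43 and none called (limma, 4 with unadjusted p under 0.05, against 20.1% of all genes). Knockout CR replicate 2 (adipocyte mean 8.10) and knockout control replicate 4 (7.60) had the highest adipocyte mean, Tbc1d4 and Pik3r1 of their groups. Wildtype CR replicate 1 had the highest adipocyte mean of its group (8.07), with the lowest Tbc1d4 (7.19) and Pik3r1 at 8.78. Wildtype control replicates 1 and 2 shared the highest adipocyte mean of their group, both at 7.28. Replicate 1 had the highest Tbc1d4 (7.37) and Pik3r1 (8.60) of the group, and replicate 2 had neither gene highest. The part of fat cells in the differences of Slc2a4, Insr, Irs1, Akt2, Tbc1d4, Pik3r1 or the other genes described here was not tested.

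In knockout mice alone the CR comparison called 0 of the 10 genes, against 0.0664% of all genes, and 2 of 10 (Tbc1d1 and Tbc1d4) had a limma unadjusted p under 0.05, against 12%. In wildtype mice it called 0 of 10, against 0.124%, and 2 of 10 (Slc2a4 and Tbc1d1) had a limma unadjusted p under 0.05, against 13.1%. CR and control arrays did not overlap for 1 of the 10 genes in knockout mice (Tbc1d1), against 6.98% of all genes, and for 3 of the 10 in wildtype mice (Tbc1d1, Slc2a4 and Akt2), against 12.5%.

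The difference of the CR response between the genotypes was tested as an interaction, and called 0 of the 10 genes and 0% of all genes (limma, 0 of 10 with an unadjusted p under 0.05, against 5.71% of all genes). The smallest p was that of Slc2a1, whose response in knockout mice minus that in wildtype mice was -0.36 (SE 0.17, 95% interval from -0.71 to 0.00, limma adjusted p = 0.863). It was -0.20 without wildtype control replicate 3, a germ cell array and the lowest Slc2a1 value of its group. Next came Insr, at 0.20 (SE 0.14, limma adjusted p = 0.922), or 0.13 without knockout control replicate 1, the other germ cell array. For Tbc1d1 the difference was -0.07 with an interval from -0.62 to 0.47, and for Tbc1d4 it was 0.30 with an interval from -0.31 to 0.91. The Tbc1d4 interval holds a difference as large as the averaged diet change of 0.55, with knockout mice responding more. The Tbc1d1 interval holds a difference of -0.56 in the same sense. Its upper end lies below 0.53, the size of the wildtype estimate, but that estimate has its own 95% interval from -0.92 to -0.13. In knockout mice the Tbc1d1 change had a 95% interval from -0.97 to -0.23, though it was not called over all genes. No response in knockout mice lies outside that interval, which is not adjusted for the number of genes tested. A weaker Tbc1d1 response in knockout than in wildtype mice is not excluded.

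**Figure D3:**
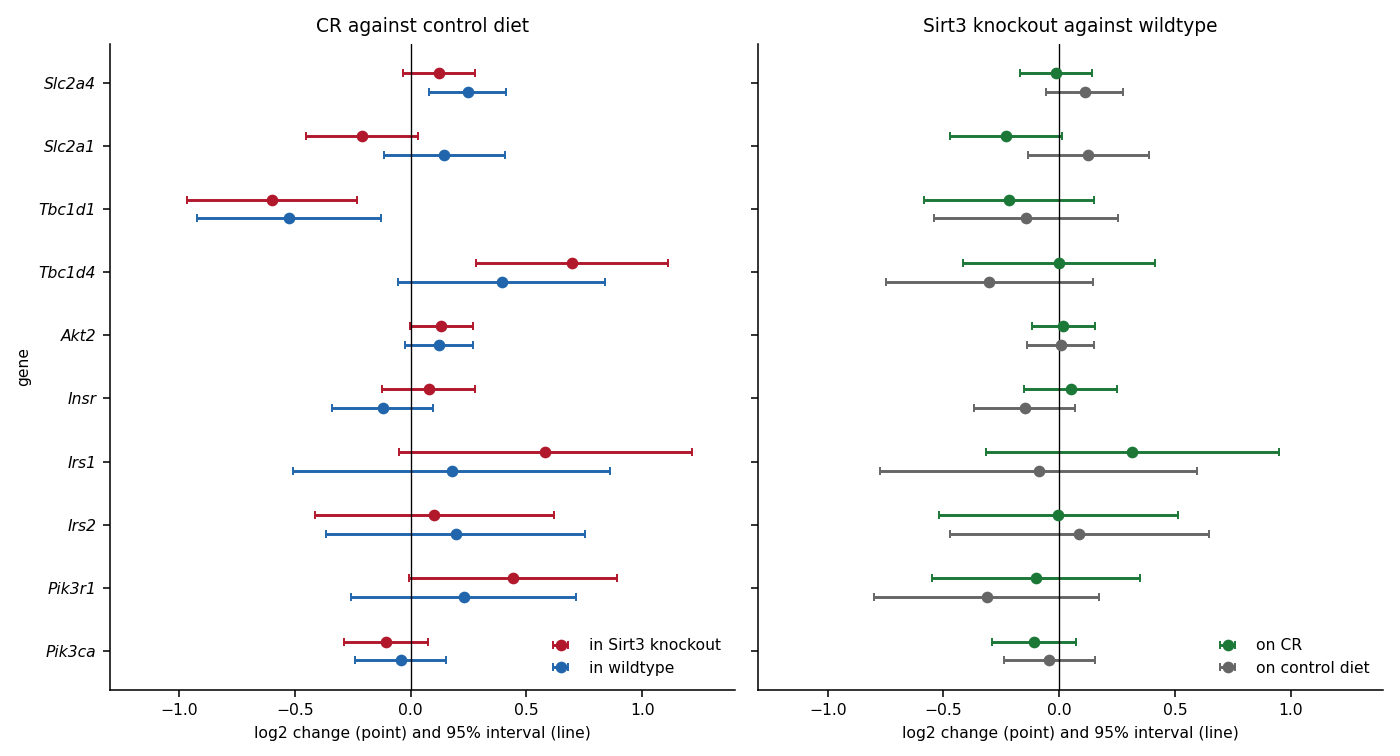
Log2 change of each gene (points) with its 95% interval (lines), on the left for CR against the control diet in knockout and wildtype mice and on the right for knockout against wildtype mice on CR and on the control diet. The Tbc1d1 intervals lie below zero in both genotypes, the Tbc1d4 interval lies above zero in knockout mice and crosses it in wildtype mice, and every interval on the right crosses zero.

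Loss of Sirt3 changed none of the 10 transcripts past the threshold. Averaged over the diets, knockout against wildtype called 0 of 10 genes and 0% of all genes (limma, 0 of 10 with an unadjusted p under 0.05, against 7.18% of all genes). The 2 smallest p were those of Tbc1d1, at -0.18 (SE 0.13, limma adjusted p = 0.785), and Pik3r1, at -0.21 (SE 0.15, limma adjusted p = 0.797). Tbc1d1 was -0.11 without knockout CR replicate 4, and Pik3r1 was -0.32 without knockout control replicate 4. On the control diet 0 of 10 were called, against 0% of all genes (limma, 0 of 10 with an unadjusted p under 0.05, against 7.03%), led by Insr at -0.15 (SE 0.10, limma adjusted p = 0.801) and Tbc1d4 at -0.30 (SE 0.21, limma adjusted p = 0.804). Insr was -0.08 without knockout control replicate 1 and -0.24 without knockout control replicate 4. Tbc1d4 was -0.10 when wildtype control replicate 1 was left out and -0.18 when knockout control replicate 3 was, against -0.47 without either knockout control replicate 4 or wildtype control replicate 3, and -0.50 and -0.72 without the 2 and the 4 arrays that carry another tissue. On CR 0 of 10 were called, against 0.0166% (limma, 0 of 10 with an unadjusted p under 0.05, against 5.92%), led by Slc2a1 at -0.23 (SE 0.11, limma adjusted p = 0.850) and Tbc1d1 at -0.22 (SE 0.17, limma adjusted p = 0.921). Slc2a1 was -0.15 without wildtype CR replicate 3. Tbc1d1 was -0.09 without knockout CR replicate 4 and -0.36 without wildtype CR replicate 4. The Tbc1d4 means on CR were 7.37 in both genotypes, with an interval of the difference from -0.41 to 0.41.

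Tbc1d1 averaged 7.67 ± 0.26 (SD, n = 4) in knockout CR mice, 8.27 ± 0.33 (SD, n = 4) in knockout control mice, 7.89 ± 0.28 (SD, n = 4) in wildtype CR mice and 8.42 ± 0.071 (SD, n = 3) in wildtype control mice. Ranked by mean, both CR groups came lowest, with knockout below wildtype on each diet. Only the step between wildtype CR and knockout control, which differ in diet and genotype, exceeded the larger SD of its neighbours. Tbc1d4 averaged 7.37 ± 0.22 (SD, n = 4) in knockout CR mice, 6.67 ± 0.38 (SD, n = 4) in knockout control mice, 7.37 ± 0.22 (SD, n = 4) in wildtype CR mice and 6.97 ± 0.37 (SD, n = 3) in wildtype control mice. Here both CR groups came highest. Only the step between wildtype control and knockout CR, which also differ in diet and genotype, exceeded the larger SD. For the other 8 genes no step between neighbouring means exceeded the larger SD.

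The Tbc1d1 call lay at the threshold. Leaving out any 1 of the 15 arrays ended it, with changes from -0.60 to -0.49 and limma adjusted p from 0.0544 to 0.0901. It also ended without the 2 germ cell arrays (-0.62, limma adjusted p = 0.0754) and without the 4 arrays that carry another tissue. The change in the latter fit, with wildtype control replicate 1 alone in its group, was -0.54. The direction of the Tbc1d1 change was the same in every setting tried. Tbc1d4 was called in its place without wildtype control replicate 1 (0.64, limma adjusted p = 0.0333) and without knockout control replicate 4 (0.63, limma adjusted p = 0.0470).

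**Figure D4:**
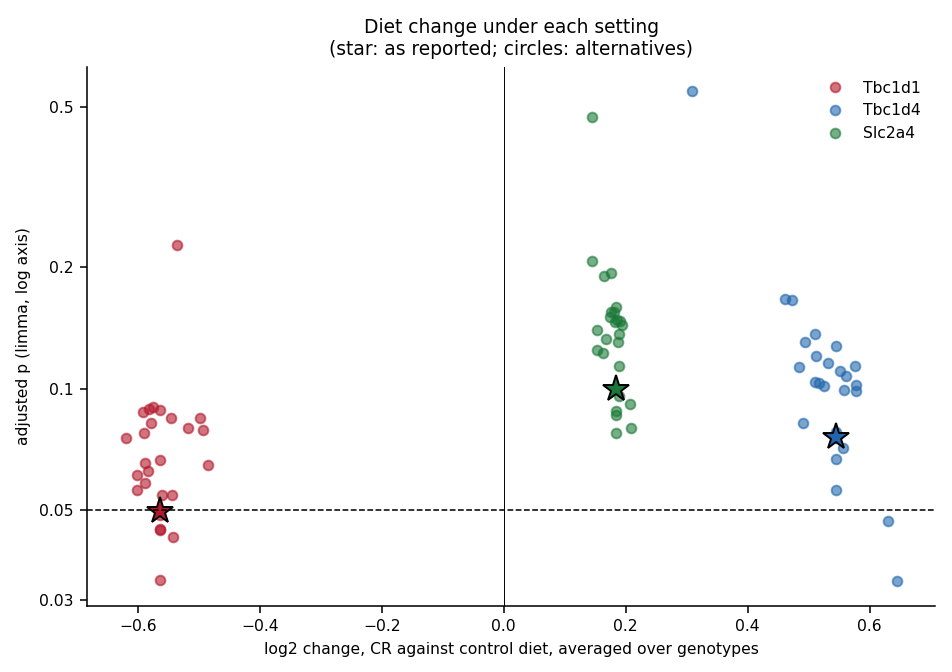
Limma adjusted p (vertical log axis, dashed line at 0.05) against the log2 change of CR over the control diet, averaged over genotypes (horizontal axis), for Tbc1d1, Tbc1d4 and Slc2a4, with a star for the value reported and a circle for each alternative setting. Tbc1d1 stays between -0.62 and -0.49 and lies on both sides of the line, Tbc1d4 between 0.31 and 0.64, and Slc2a4 between 0.14 and 0.21 above the line throughout.

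Few genes of the wider pathway passed the test in any comparison of the diets. Of 33 other insulin signalling genes tested (37 listed, among them Gsk3b and Foxo1), 0 were called in the averaged diet comparison (limma, 8 with an unadjusted p under 0.05, where 20.1% of all genes had one), and the median change was 0.06, against 0.03 over all genes. The 2 smallest p were those of Akt1, another AKT form, at 0.25 (SE 0.093, limma adjusted p = 0.165), and Grb10, an adaptor that restrains the insulin receptor, at 0.16 (SE 0.062, limma adjusted p = 0.172). Akt1 was 0.15 without the 2 germ cell arrays and 0.16 with array weights, and Grb10 was 0.11 without wildtype control replicate 3. Of 18 regulators of Slc2a4 and AMPK subunits, 0 were called (limma, 4 with an unadjusted p under 0.05, against the same 20.1%), with a median of 0.01 and with the smallest p for Nrf1, a transcription factor of respiratory genes, at 0.18 (SE 0.065, limma adjusted p = 0.157), and Klf15, a transcription factor of muscle fuel use, at 0.35 (SE 0.14, limma adjusted p = 0.187). The Klf15 value was 0.07 when the 4 arrays that carry another tissue were left out, and 0.16 when only the 2 with germ cell transcripts were.

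Of 22 GLUT4 vesicle genes tested (26 listed), 0 were called in the averaged comparison (limma, 4 with an unadjusted p under 0.05, against 20.1% of all genes), with a median of 0.01. Stxbp4 (synip), which binds syntaxin 4 and is released from it in response to insulin in fat cells, was the 1 gene of the list called in wildtype mice. In knockout mice it read 8.39, 8.34, 8.01 and 8.31 on CR, against 8.09, 8.33, 8.45 and 8.18 on the control diet. It read 8.65, 8.48, 8.40 and 8.38 in wildtype CR mice, against 7.87, 7.91 and 7.74 in wildtype control mice. The diets overlapped in knockout mice, with a change of 0.00, and were apart in wildtype mice, with a change of 0.64 (SE 0.11, limma adjusted p = 0.0419). The difference between the genotypes was -0.64 (SE 0.15, limma adjusted p = 0.641) and did not pass over all genes. The wildtype call ended in 12 of 15 fits that left out 1 array and in 7 of 12 other settings, with changes from 0.58 to 0.67. Among these were the fit without the 2 germ cell arrays (limma adjusted p = 0.121) and that without the 4 arrays that carry another tissue. The latter has wildtype control replicate 1 alone in its group. Averaged over the genotypes Stxbp4 stood at 0.32 (SE 0.073, limma adjusted p = 0.0536). That result too turned on the setting: it was called in 5 of 11 other settings (limma adjusted p from 0.0309 to 0.306 over the 11) and in 1 of 15 fits that left out 1 array. Sort1, a sorting receptor of GLUT4 vesicles, was at 0.24 (SE 0.088, limma adjusted p = 0.155).

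Of 11 other genes of glucose transport and phosphorylation tested (14 listed), 0 were called (limma, 3 with an unadjusted p under 0.05, against 20.1% of all genes), with changes from -0.89 to 0.38 and a median of 0.07. Arrdc4 and Txnip, related arrestins that remove glucose transporters from the surface, were at 0.20 (SE 0.068, limma adjusted p = 0.137) and 0.38 (SE 0.17, limma adjusted p = 0.237). The Txnip value was 0.11 without the 4 arrays that carry another tissue. Slc2a3, a transporter of neurons and sperm named after its values were seen, read 8.05 on knockout control replicate 1 and 8.81 on wildtype control replicate 3, the 2 germ cell arrays, and 6.03 to 6.65 on the other 13. Its averaged change was -0.75 (limma adjusted p = 0.245), -0.37 without wildtype control replicate 3 alone or with array weights, and -0.14 without those 2 arrays. Of 11 FOXO targets tested (12 listed, including Irs2 and Insr), 0 were called (limma, 2 with an unadjusted p under 0.05, against 20.1% of all genes), with changes from -0.02 to 0.67 and a median of 0.13, against 0.03 over all genes. They were led by Cited2, a transcriptional coregulator, at 0.43 (SE 0.15, limma adjusted p = 0.154), or 0.27 without the 4 arrays that carry another tissue, and by Klf15. The 0 calls in these 5 lists stand against 1.07% called over all genes.

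**Figure D5:**
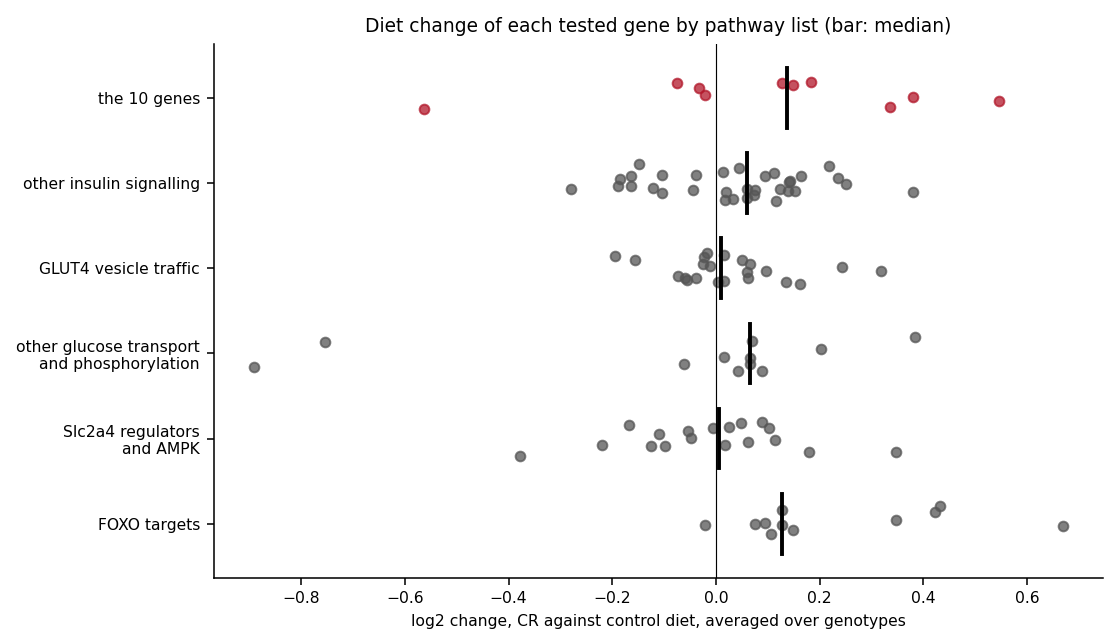
Log2 change of CR over the control diet, averaged over genotypes (horizontal axis), of every tested gene of each pathway list (points, spread vertically for legibility) with the list's median (bar). The 10 genes run from -0.56 to 0.55 with a median of 0.14, and the medians of the other 5 lists lie between 0.01 and 0.13.

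The genes whose values followed Tbc1d1 most closely over the 15 arrays, by the root mean square difference after each gene's mean was taken off, were Arpp19 (0.181), Ptpn3 (0.182) and Mir568 (0.207). Tbc1d1 itself varied by 0.37 about its own mean by the same measure, and the averaged CR changes of these 3 genes were -0.49, -0.49 and -0.46. Closest to Slc2a4 were 0610012G03Rik (0.0596), Atp5g2 (0.0596) and Pkm (0.0634), with Slc2a4 varying by 0.126 about its mean and averaged CR changes of 0.16, 0.15 and 0.24. Since these genes were picked by likeness over all 15 arrays, both diets included, a diet difference of the same direction follows from the choice.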

How the data were processed

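Each deposited value is a log2 intensity made with RMA by the authors, per the submitters' processing notes. The RMA version, the scanner and any hybridisation or scan batch are unstated in the sources used here, and no batch was tested. Array medians over the 35556 probe sets ran from 5.40 to 5.48 on the log2 scale, and the deposited values were used without further normalization. The same value occurred on 2 or more arrays in 37.6% of probe sets. The platform annotation gave 1 symbol to 21789 probe sets and several to 1621, and did not list 12146. The probe set with the highest mean stood for its gene, and genes averaging under 5.32, the 40th percentile of the annotated probe sets, were not tested.

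Groups followed the labelled genotype and diet. A limma 3.58.1 model in R 4.3.3 (lmFit and eBayes, 1 mean per group) took all 15 arrays, and 7 contrasts were tested, two-sided, with Benjamini-Hochberg adjustment over 12056 genes and calls at an adjusted p under 0.05. Errors beside changes are moderated standard errors, those beside means are SDs between arrays, and 3 or 4 arrays per group limit the precision. The script was tested on simulated data.

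The 10 genes, the other gene and marker lists and the alternatives were chosen with earlier results of these data known. Full statistics are given for genes that were called, had an unadjusted p under 0.05 or had 1 of the 2 smallest p of a contrast, and for the called or the 2 leading genes of the other lists. The nearest genes are the 3 with the smallest root mean square difference. Alternatives were no filter, a 60th percentile filter, averaging a gene's probe sets, testing each probe set, quantile normalization, centring on array medians, a trended robust prior, only the groups compared, array weights, a replicate block, the removal of 2 or 4 arrays with another tissue, and leaving out each array. Promoter windows are from RefSeq (GRCm38.p6). Plots were made with matplotlib 3.10.9 in Python 3.11.15.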

Additional observations from a re-analysis of the deposited data

Results flagged for a closer look

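Single arrays stood far from the rest of their group in 3 of the 30 sets of 4 arrays examined for the 10 genes, and chance alone flags about 1 in 20 groups. Tbc1d1 was 7.28 on knockout CR replicate 4, against 7.75 to 7.84 on the other 3 knockout CR arrays. Tbc1d1 was also low, at 7.47, on wildtype CR replicate 4, against 7.99 to 8.06 on the other 3 wildtype CR arrays, and this array carried liver transcripts. Without either array the averaged CR change of Tbc1d1 was -0.50 and -0.49. Irs1 was 7.36 on knockout control replicate 3, against 8.41 to 8.57 on the other 3 knockout control arrays.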

How the results depend on the processing

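The 1 call among the 10 genes, Tbc1d1 on CR averaged over genotypes, became 0 calls with no filter (limma adjusted p of Tbc1d1 = 0.0888), quantile normalization (0.0545), arrays centred on their medians (0.0626), the replicate number as a block (0.0802), and without the 2 germ cell arrays (0.0754). The call also ended without the 4 arrays that carry another tissue, a fit with wildtype control replicate 1 alone in its group. It stayed in the other 5 settings that apply. Leaving out each array gave 0 to 1 calls. In the other 6 comparisons 0 of the 10 genes were called in every setting, and no change given in full reversed. The fit on only the groups compared was run for the 4 pairs of groups, since it is the same fit for the averages and the interaction. Over all genes the averaged diet comparison called 129, but 5 to 189 over the other settings and 23 to 259 with 1 array left out, so the share of genes called, and with it the place of the threshold, moved with the setting. The split was 78 higher and 51 lower, against 23 and 29 after centring and 83 and 103 with array weights. CR called 8 genes in knockout mice (0 to 33 over all settings) and 15 in wildtype mice (1 to 33), and the interaction 0 (0 to 5). Knockout against wildtype called 0 averaged (0 to 7), 0 on the control diet (0 to 8) and 2 on CR (0 to 13).

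No pairing of the arrays by replicate number was seen, though correlations cannot exclude one. After group means were taken off, same-numbered arrays of different groups correlated between -0.64 and 0.50 (median 0.01, 7 of 21 pairs over 0.1). Those with different numbers ran from -0.49 to 0.76 (median -0.01, 16 of 63 pairs over 0.1). Of 15 arrays, 2 correlated best with their own number. The replicate block called 0 of the 10 genes and 36 genes over all.

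Several values of knockout against wildtype, of the interaction and of the wider pathway lists moved by over 1.5 times in some settings, and these values stand beside them above. The causes were not tested.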
